A study of Homo sapiens with 37 samples.

Results

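The HOX genes of the 4 human clusters were followed across 37 libraries of total RNA from endothelial cells and lung fibroblasts driven towards senescence, a lasting stop of cell division. Members were all genes with a symbol made of HOX, a cluster letter from A to D and a number. This gave 39 of the 57773 gene identifiers counted, with 11 in the HOXA cluster on chromosome 7, 10 in HOXB on chromosome 17, 9 in HOXC on chromosome 12 and 9 in HOXD on chromosome 2. The rule reads symbols and no expression value.

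The libraries fall into 17 groups. Human aortic endothelial cells (HAEC) gave 3 irradiated (4 Gy) and 2 control libraries, at population doubling level (PDL) 4 to 6. Human umbilical vein endothelial cells (HUVEC) gave 3 irradiated (4 Gy) and 3 control libraries at PDL 3 to 5. IMR-90, a diploid fibroblast strain from fetal lung, gave 2 libraries irradiated with 10 Gy at PDL15, 2 of late passage (PDL52) and 2 of proliferating PDL15 cells, which serve as the control of both. WI-38, another fetal lung fibroblast strain, was used at PDL25 in 5 settings with 2 libraries per group. In the first set these were doxorubicin, a DNA-damaging drug, at 2 µg/mL for 24 h against control, and a lentivirus expressing the oncogene HRASG12V against an empty vector, both at 10 MOI with 1 µg/mL puromycin. In the second set they were a repeat of doxorubicin against control, 10 Gy of radiation against control, and replicative exhaustion at PDL 53 to 55 against proliferating cells at PDL25. Donor, culture medium and cell type cannot be told apart in comparisons between cell types. Nothing in the labels says whether replicates came from separate cultures. The p-values therefore measure only the spread between these libraries, which may be technical.

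HOX proteins are homeodomain transcription factors that tell cells where they lie along the body axis. Within a cluster the genes with low numbers are turned on in anterior structures and those with high numbers in posterior and distal ones, and cells in culture keep much of the pattern of the place they came from. In lung mesenchyme HOXA5 is needed for normal airway development in the mouse, and in endothelium HOXA9 and HOXD3 have been tied to vessel growth and adhesion. HOX proteins bind DNA together with TALE homeodomain cofactors of the PBX and MEIS families, are held silent by Polycomb complexes, and are switched on by retinoic acid in the embryo.

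The DNA just before a RefSeq transcription start is shown for 5 of these genes. HOXA2, HOXA6 and HOXA7 fell together in IMR-90 cells, and HOXA9 and HOXD8 are among the genes that separate the endothelial cells. For HOXA6, HOXA7 and HOXA9 the stretch shown lies within the longer gene span of GENCODE v29, the annotation used for exon lengths. For HOXA2 and HOXD8 it lies partly within that span. Each run holds the 250 bases before the RefSeq transcription start, 5′ to 3′ on the gene's strand (GRCh38.p14), and capitals mark CG dinucleotides, the site of DNA methylation.
HOXA2 (chr7:27102684-27102933, minus strand): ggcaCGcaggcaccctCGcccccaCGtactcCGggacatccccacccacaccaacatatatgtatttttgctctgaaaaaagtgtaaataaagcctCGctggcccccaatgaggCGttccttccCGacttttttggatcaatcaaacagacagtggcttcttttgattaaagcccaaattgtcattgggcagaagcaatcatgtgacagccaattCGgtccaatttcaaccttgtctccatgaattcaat
HOXA6 (chr7:27147775-27148024, minus strand): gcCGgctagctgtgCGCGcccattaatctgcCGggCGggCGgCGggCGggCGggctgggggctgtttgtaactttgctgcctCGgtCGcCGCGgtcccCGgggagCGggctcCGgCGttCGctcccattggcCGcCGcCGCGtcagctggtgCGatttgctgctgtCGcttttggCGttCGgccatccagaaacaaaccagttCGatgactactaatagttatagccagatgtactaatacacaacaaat
HOXA7 (chr7:27156676-27156925, minus strand): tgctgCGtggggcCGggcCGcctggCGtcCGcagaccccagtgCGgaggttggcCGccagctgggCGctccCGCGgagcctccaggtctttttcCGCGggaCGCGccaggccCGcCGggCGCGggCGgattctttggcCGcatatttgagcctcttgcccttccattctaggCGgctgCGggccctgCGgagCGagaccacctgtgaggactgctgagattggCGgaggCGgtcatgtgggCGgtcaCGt
HOXA9 (chr7:27165538-27165787, minus strand): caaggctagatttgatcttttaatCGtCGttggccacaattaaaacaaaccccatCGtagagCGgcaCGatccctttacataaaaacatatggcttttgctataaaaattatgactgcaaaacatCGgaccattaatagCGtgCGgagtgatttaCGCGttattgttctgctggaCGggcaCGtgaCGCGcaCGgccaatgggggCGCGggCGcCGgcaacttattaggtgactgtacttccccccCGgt
HOXD8 (chr2:176129455-176129704, plus strand): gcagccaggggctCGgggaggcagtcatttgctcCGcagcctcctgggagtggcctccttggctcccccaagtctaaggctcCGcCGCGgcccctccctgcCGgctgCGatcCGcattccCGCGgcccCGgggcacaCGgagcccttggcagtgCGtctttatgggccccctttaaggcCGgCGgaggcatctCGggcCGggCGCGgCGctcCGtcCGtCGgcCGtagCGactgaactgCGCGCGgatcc

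The upstream runs differ in CG content. HOXA6 has 27 CG pairs, HOXA7 and HOXD8 have 28 each, HOXA9 has 20 and HOXA2 has 8, against a median of 11 over the 35116 promoters of the RefSeq table. At least 28 CG pairs were found in 15.9% of all promoters. The letters TGATTNAT, a motif of paired PBX and HOX proteins, were searched on both strands in the same 250 bases and occur in 2.48% of all promoters, and in 2 of the 27 HOX promoters of the table, which belong to 20 HOX genes. These were HOXA2 and HOXD11. The letters CCAAT occur in 32.0% of all promoters and in 18 of the 27 HOX promoters, among them HOXA2, HOXA6, HOXA7 and HOXA9. The letters TATAAA occur in 10.7% of all promoters and in 5 of the 27 HOX promoters, HOXA9 included. These matches describe letters and were not tested for binding.

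HOX genes took a small share of the counts. Library totals ran from 102293388 to 370996204 counts, and the 39 genes held 0.000823% to 0.00107% of them in HAEC and 0.0153% to 0.0183% in HUVEC. The share was 0.00755% to 0.00842% in irradiated and PDL52 IMR-90 cells, against 0.0149% to 0.0175% in PDL15 cells. It was 0.00543% to 0.00887% in the 8 libraries of the first WI-38 set and 0.0175% to 0.0237% in the 12 of the second. The WI-38 sets differ in library make-up and were never set against each other except as differences of responses. Levels are CPM, the counts of a gene relative to the scaled total of its library. They were scaled over the 9 control libraries to compare cell types and within each set to compare treatments, so values of a control differ slightly between scales. Levels of different genes are compared only as CPM per kilobase of exon. Summed endothelial markers were higher in the endothelial cells and summed fibroblast markers in the lung fibroblasts, though HAEC held fibroblast markers too. On the scale of the 9 control libraries, the 9 endothelial markers measured summed to 1655 CPM in HAEC and 1788 CPM in HUVEC, 266 CPM in IMR-90 and 128 CPM in WI-38. The 10 fibroblast markers summed to 15636 CPM in IMR-90 and 5569 CPM in WI-38, 28.9 CPM in HUVEC and 1111 CPM in HAEC. In HAEC controls the 6 epithelial markers summed to 243 CPM, with no count for CDH1, EPCAM and ESRP1. They summed to 300 CPM in HUVEC, 14.1 CPM in IMR-90 and 36.4 CPM in WI-38. The 6 leukocyte markers summed to 8.37 CPM in HAEC controls, with no count for CD3E and ITGAM. In such bulk RNA, fewer cells that express a gene and less RNA per cell cannot be told apart.

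**Figure D1:**
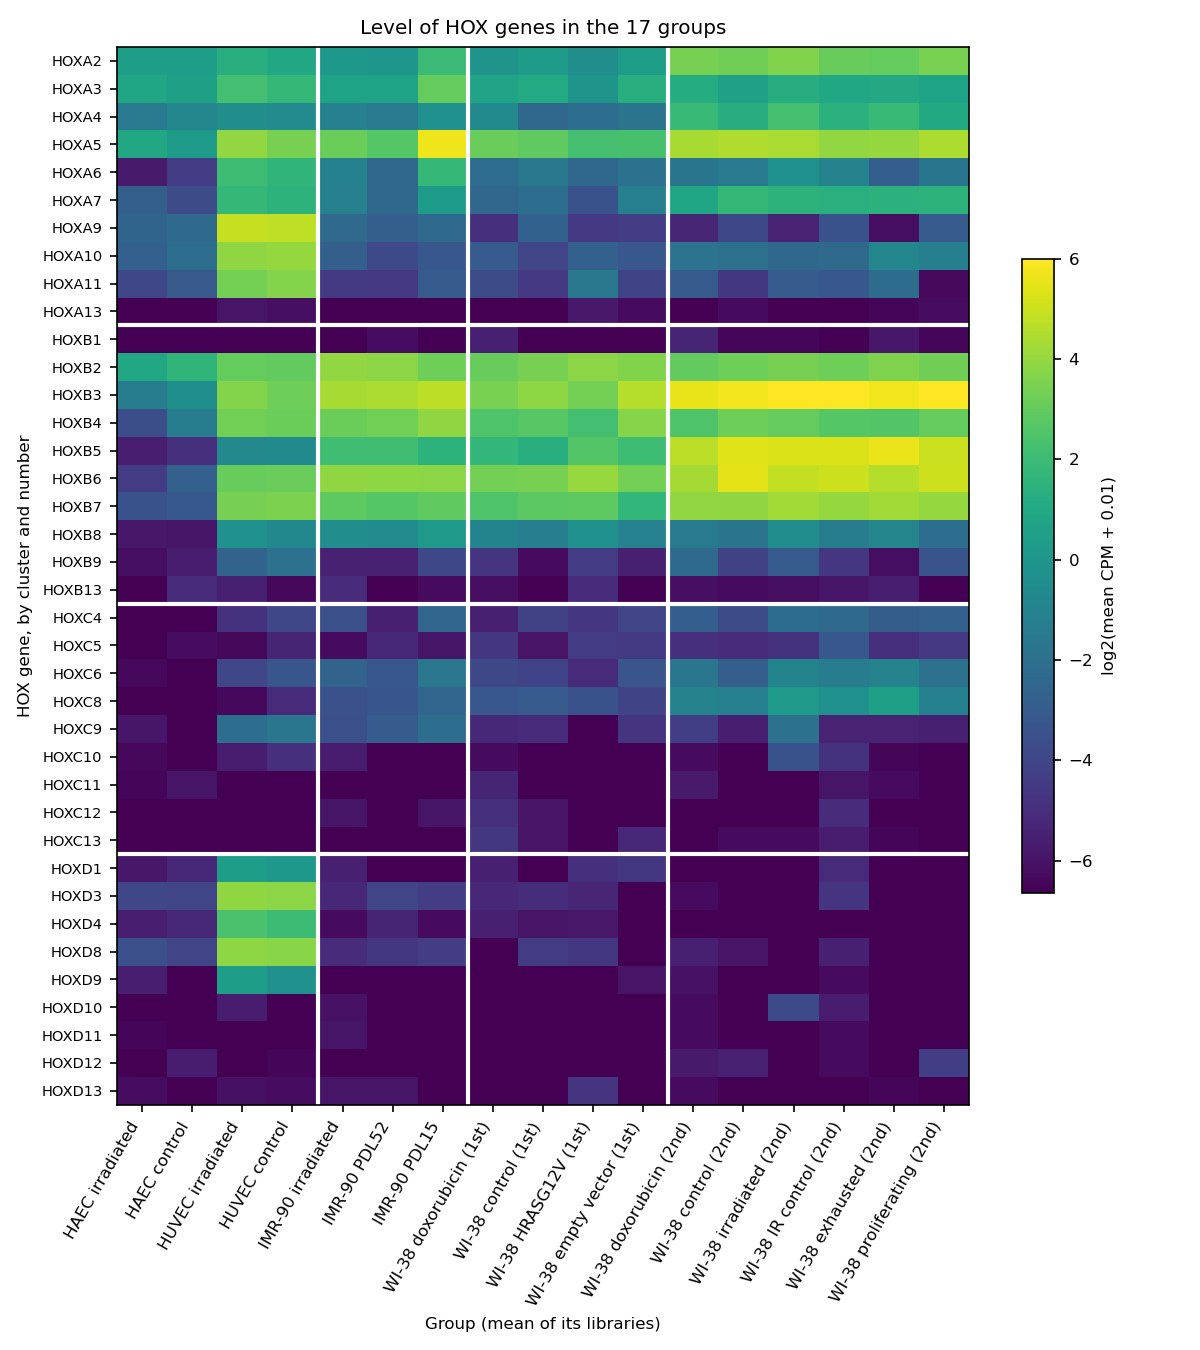
Mean level of 38 HOX genes (rows, by cluster and number) in the 17 groups (columns), as log2 of mean CPM plus 0.01 within each set's scale. At 1 CPM or more, control HUVEC hold HOXA genes up to HOXA11, HOXB genes up to HOXB7 and HOXD genes up to HOXD8, and the control fibroblasts hold HOXA and HOXB genes alone. HAEC are dark apart from low-numbered HOXA and HOXB genes.

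The 4 cell types carried different HOX patterns in their control state, as the map of levels by cluster shows. At a mean of 1 CPM or more, HAEC held 4 of the 39 genes (HOXA2, HOXA3, HOXA5 and HOXB2), HUVEC 17, IMR-90 PDL15 cells 12 and WI-38 controls of the first set 9. Within HOXA the genes at that level reached up to number 5 in HAEC and WI-38, 7 in IMR-90 and 11 in HUVEC. Within HOXB they reached 2 in HAEC, 7 in HUVEC and WI-38 and 8 in IMR-90. No HOXC gene reached 1 CPM in any of the 4 cell types, with a highest mean of 0.334 CPM for HOXC6 in IMR-90. HOXD genes reached it only in HUVEC, with HOXD1, HOXD3, HOXD4 and HOXD8. At the ends of the clusters HOXA13, HOXB1, HOXB13 and HOXD10 to HOXD13 stayed below 0.05 CPM in these controls. Counts of 0 in every control library were recorded for 13 of the 39 genes in HAEC, 6 in HUVEC, 11 in IMR-90 and 11 in WI-38.

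The leading gene also differed between cell types on the scale of CPM per kilobase. In HAEC HOXB2 led with 1.31 ± 0.0247 CPM per kilobase (SD, n = 2), followed by HOXA5 at 0.679 ± 0.0599, and their libraries did not overlap. In HUVEC HOXA9 led with 8.58 ± 0.175 (SD, n = 3), ahead of HOXB7 at 7.18 ± 0.504 and HOXA5 at 5.82 ± 0.322, again without overlap between neighbours. HOXA11 and HOXD8, next in HUVEC, overlapped. In IMR-90 PDL15 cells HOXA5 stood at 31.4 ± 4.12 CPM per kilobase (SD, n = 2) and the next gene, HOXB6, at 5.66 ± 0.0610. In WI-38 controls HOXB2, HOXB7 and HOXA5 had 5.50 ± 0.366, 5.48 ± 0.231 and 5.26 ± 0.656 CPM per kilobase (SD, n = 2) and overlapped each other. By cluster, HOXA held 54.2% and 59.5% of the summed CPM per kilobase in the HAEC controls and 48.5% to 49.9% in the HUVEC controls. It held 58.9% and 62.3% in IMR-90 PDL15 cells and 23.4% and 26.0% in WI-38 controls, where HOXB held 73.6% and 76.0%.

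Aortic endothelial cells lacked most of the HOX expression of umbilical vein cells. Of the 39 genes, 27 passed the filter on low counts, and 23 of these were lower in HAEC controls than in HUVEC controls at a Benjamini-Hochberg adjusted p below 0.05 in edgeR's quasi-likelihood test, the rule for every call here. None was higher. Over all 30975 genes tested, 30.4% were called, with 4603 higher and 4823 lower and a median log2 fold change of 0.00. The median of the 27 HOX genes was -5.93, or -4.75 with 4 of the 5 tested genes that had no count in HAEC set at their bound. The other, HOXC8, averaged under the floor in HUVEC too and kept its fitted value. All 23 called genes differed by at least 2-fold in the fit. HOXA2, HOXA4 and HOXC8 were among the genes not called, and the libraries of HOXA4 overlapped.

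**Figure D2:**
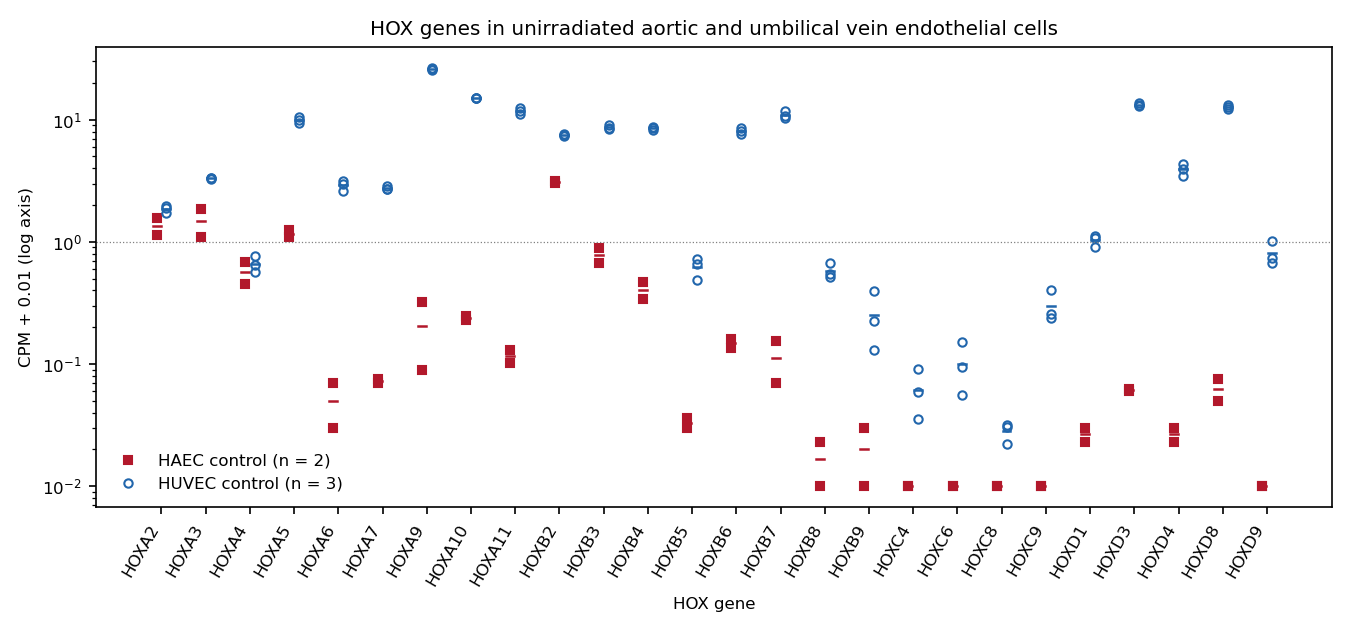
Level of 26 tested HOX genes in HAEC controls (squares, n = 2) and HUVEC controls (circles, n = 3), as CPM plus 0.01 on a log axis; short lines are means and the dotted line is 1 CPM. The cell types lie close at HOXA2 to HOXA4 and far apart from HOXA6 upwards, in HOXB3 to HOXB9 and throughout HOXD.

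HOXA5 had 1.23 and 1.09 CPM in HAEC controls, against 9.86, 9.43 and 10.5 CPM in HUVEC controls. HOXA9, which belongs to the posterior part of the cluster, had 0.309 and 0.0797 CPM in HAEC, against 26.5, 25.5 and 26.0 CPM in HUVEC. The groups lay apart for both genes, at a log2 fold change of -3.09 ± 0.12 (SE) for HOXA5 (adjusted p = 2.04e-12) and -6.91 ± 0.25 for HOXA9 (adjusted p = 6.6e-13). HOXA10 had 0.217 and 0.239 CPM in HAEC and 15.1, 15.1 and 14.9 CPM in HUVEC (-6.05 ± 0.15, adjusted p = 6.81e-15). HOXA11 had 0.0922 and 0.12 CPM in HAEC and 11.9, 12.4 and 11.2 CPM in HUVEC (-6.83 ± 0.18, adjusted p = 1.4e-14). The 3 posterior HOXA genes were thus detected in HAEC at under 1 CPM and were among the highest HOX genes of HUVEC. HOXA9 and HOXA10 overlap other annotated genes on the same strand in 15.9% and 9.93% of their exon bases. On the opposite strand HOXA9, HOXA10 and HOXA11 overlap noncoding genes in 13.9%, 16.4% and 31.1%. Reads of such genes may be shared, as the use of strand in counting is not given.

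In the HOXB cluster the difference grew in size from HOXB2 to HOXB7 and was smaller again at HOXB8 and HOXB9. HOXB2 had 3.03 and 3.11 CPM in HAEC, against 7.55, 7.41 and 7.59 CPM in HUVEC, a log2 fold change of -1.29 ± 0.09 (adjusted p = 4e-09). HOXB6 had 0.125 and 0.15 CPM in HAEC and 8.08, 7.58 and 8.53 CPM in HUVEC (-5.89 ± 0.15, adjusted p = 5.44e-15). HOXB7 had 0.145 and 0.0598 CPM in HAEC and 10.7, 11.8 and 10.3 CPM in HUVEC (-6.62 ± 0.18, adjusted p = 2.39e-14). HOXB3 and HOXB4 lay between, at -3.52 ± 0.11 and -4.47 ± 0.13, as did HOXB5 at -4.65 ± 0.40. HOXB8 and HOXB9, below 1 CPM in both cell types, differed by -6.03 ± 0.55 and -4.75 ± 1.03. All 8 HOXB genes tested were lower in HAEC.

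The HOXD genes marked HUVEC alone among the 4 cell types at the level of 1 CPM. HOXD8, a gene of the middle of the cluster, had 0.0658 and 0.0399 CPM in HAEC, against 12.1, 13.2 and 12.8 CPM in HUVEC (-7.82 ± 0.21, adjusted p = 1.81e-14). Its counts were 10 and 4 in the HAEC libraries and 2362, 2169 and 2368 in the HUVEC libraries. HOXD3 had 0.0527 and 0.0498 CPM in HAEC and 13.8, 13.2 and 12.9 CPM in HUVEC (-7.99 ± 0.23, adjusted p = 3.98e-14). HOXD9 had no count in HAEC and a mean of 0.795 CPM in HUVEC. Taking 3 counts in each HAEC library as the most that 0 allows, HOXD9 was at least 32.0-fold lower in HAEC, a bound that reflects counting error alone. HOXC9, also without a count in HAEC, had a mean of 0.289 CPM in HUVEC and was at least 11.6-fold lower. Of HOXD3 and HOXD4, 62.2% and 80.5% of the annotated exon bases overlap another gene on the same strand, AC009336.2, so their counts are less certain than that of HOXD8.

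Lists of related genes differed in the share called, from 30% of flanking genes to 100% of noncoding genes, where 30.4% of all genes were called. All 11 tested noncoding genes of the clusters were lower in HAEC. The smallest adjusted p among them belonged to HOXA-AS3 at 0.106 CPM in HAEC and 6.53 CPM in HUVEC (-5.88 ± 0.19, adjusted p = 1.7e-13) and HOXA10-AS at 0.139 and 8.55 CPM (-5.97 ± 0.20, adjusted p = 3.1e-13). Of 9 TALE cofactors 3 were higher and 2 lower, with a median log2 fold change of 0.09. Among them MEIS2 had 26.1 CPM in HAEC and 14.7 CPM in HUVEC. Of 16 tested genes of retinoid regulation 4 were higher and 8 lower, and ALDH1A2, the main retinoic acid synthesising enzyme of the embryo, had 0.486 CPM in HAEC and 53.8 CPM in HUVEC (-6.76 ± 0.12, adjusted p = 6.5e-17). Among 19 tested transcription factors of position other than HOX, 10 were higher and 5 lower. HAND2, a heart and neural crest factor, had 12 CPM in HAEC and 0.0214 CPM in HUVEC, and MEOX2, a homeobox gene of mesoderm and vessels, had 0.0431 CPM in HAEC and 9.67 CPM in HUVEC. Of 10 flanking genes next to the clusters 3 were called, none by 2-fold, a share near that of all genes. The fibroblast markers moved with this comparison: 5 of 10 were higher in HAEC and none lower. Their part in the result was not tested.

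The lung fibroblasts were set against both endothelial cell types, weighting each cell type equally on the log2 scale. Of 27 tested HOX genes 15 were higher and 8 lower in fibroblasts, against 65.3% of all genes called. The median was 1.07 for the HOX genes and -0.01 for all genes. HOXB3 had the smallest adjusted p, with 28.8 and 26.6 CPM in IMR-90 and 17.5 and 17 CPM in WI-38, against 0.665 and 0.887 CPM in HAEC and 8.42, 8.54 and 9.09 CPM in HUVEC (3.09 ± 0.07, adjusted p = 3.43e-17). HOXB6 had 14.6 and 14.9 CPM in IMR-90 and 12.6 and 12.5 CPM in WI-38, above every endothelial library (3.70 ± 0.08, adjusted p = 5.49e-17). HOXA10 had 0.092 and 0.113 CPM in IMR-90 and 0.0811 and 0.0431 CPM in WI-38, below every endothelial library (-4.52 ± 0.19, adjusted p = 4.33e-13).

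For other genes the contrast averages unlike endothelial levels. HOXA5 had 58.7 and 48.7 CPM in IMR-90 and 9.77 and 8.19 CPM in WI-38, so IMR-90 lay above every endothelial library and WI-38 within or under the HUVEC range given above (2.69 ± 0.08 over all 4 cell types, adjusted p = 1.29e-15). HOXB4 had 16.1 and 15.2 CPM in IMR-90 and 7.90 and 8.08 CPM in WI-38, which lay just under the 8.15 to 8.73 CPM of HUVEC (2.63 ± 0.08, adjusted p = 3.96e-15). HOXB7 had 8.10 and 7.57 CPM in IMR-90 and 8.12 and 8.62 CPM in WI-38, above HAEC and below HUVEC (2.87 ± 0.11, adjusted p = 1.74e-13). HOXD8 had 0.0263 and 0.0563 CPM in IMR-90 and 0.0295 and 0.0575 CPM in WI-38, overlapping the HAEC libraries (-4.29 ± 0.37, adjusted p = 1.04e-08). For HOXB4 in WI-38 and HOXB7 in both strains, the higher average thus held against HAEC and not against HUVEC.

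The 2 fetal lung strains differed in HOX levels. HOXA6, HOXA7 and HOXB8 reached 1 CPM in IMR-90 and not in WI-38 controls of the first set. In the control groups of the second WI-38 set HOXA7 reached it too, and HOXA6 and HOXB8 did not. IMR-90 PDL15 cells were higher than WI-38 controls of the first set for 14 and lower for 1 of the 27 tested genes, where 49.5% of all genes were called. The HOX median was 0.71, against 0.03 for all genes. The calls of HOXA11, HOXB6, HOXB9 and HOXC6 were lost when a library was left out. HOXA5 stood out with 58.7 and 48.7 CPM in IMR-90 and 9.77 and 8.19 CPM in WI-38 (2.58 ± 0.10, adjusted p = 4.13e-13). HOXA6 had 3.66 and 3.45 CPM in IMR-90 and 0.398 and 0.381 CPM in WI-38 (3.19 ± 0.20, adjusted p = 4.09e-10). HOXA3 had 9.50 and 7.62 CPM in IMR-90 and 2.80 and 2.29 CPM in WI-38 (1.75 ± 0.18, adjusted p = 2.07e-07). HOXA7 had 1.10 and 1.43 CPM in IMR-90 and 0.221 and 0.331 CPM in WI-38 (2.19 ± 0.24, adjusted p = 5.68e-07). The HOXA2 to HOXA7 block was therefore higher in IMR-90 throughout, all 6 genes being called.

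The HOXB genes differed in both directions between the strains. HOXB4 had 16.1 and 15.2 CPM in IMR-90 and 7.90 and 8.08 CPM in WI-38 (0.97 ± 0.09, adjusted p = 1.08e-07), and HOXB3 differed by 0.68 ± 0.08 (adjusted p = 1.54e-06). HOXB8 had a mean of 1.15 CPM in IMR-90 and 0.495 CPM in WI-38 (1.21 ± 0.30, adjusted p = 0.00257), and HOXB9, below 1 CPM in both, differed by 3.80 ± 1.30 (adjusted p = 0.0222). HOXB2 was the gene that was lower in IMR-90 (-0.40 ± 0.09, adjusted p = 0.000906). HOXB7 (-0.09 ± 0.11, adjusted p = 0.519) and HOXD8 (-0.10 ± 0.54, adjusted p = 0.915) were not called. HOXA-AS3, which overlaps HOXA6 and HOXA7 on the opposite strand, had a mean of 5.90 CPM in IMR-90 and 0.699 CPM in WI-38. The passage of the controls differs (PDL15 against PDL25) and cannot be told apart from the strain.

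Radiation lowered 4 of the 5 tested HOXB genes in HAEC. In HAEC 15 HOX genes were tested and 5 called, 1 higher and 4 lower, where 39.7% of all genes were called. The HOX median was -0.39 and that of all genes 0.01. HOXB2 had 1.83, 1.83 and 1.84 CPM in irradiated HAEC, against 3.03 and 3.14 CPM in controls (-0.75 ± 0.12, adjusted p = 3.93e-05). HOXA5 had 2.10, 1.71 and 1.95 CPM in irradiated cells and 1.23 and 1.10 CPM in controls (0.72 ± 0.16, adjusted p = 0.00102). The groups did not overlap for either gene.

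HOXB3, HOXB4 and HOXB6, all below 1 CPM, also fell in irradiated HAEC. HOXB4 had 20, 4 and 14 counts in irradiated libraries and 50 and 46 in controls, a log2 fold change of -2.47 ± 0.54 (adjusted p = 0.000897). HOXB3 changed by -0.99 ± 0.27 (adjusted p = 0.00615) and HOXB6 by -1.82 ± 0.71 (adjusted p = 0.0486), the calls that did not hold in every fit with a library left out. HOXB7 had 0.0476, 0.0809 and 0.11 CPM in irradiated cells and 0.145 and 0.0604 CPM in controls, and HOXD8 had 0.0952, 0 and 0.13 CPM against 0.0658 and 0.0402 CPM. Both genes overlapped and were not called (adjusted p = 0.705 and 0.751). The HOXB share of summed CPM per kilobase was 23.1% to 28.1% in irradiated HAEC, against 39% and 44.0% in controls. Of 10 fibroblast markers 1 rose and 2 fell, their sum being 2245 CPM in irradiated HAEC and 1116 CPM in controls. The endothelial markers summed to 1930 CPM in irradiated HAEC and 1662 CPM in controls, and the smooth muscle markers to 50.4 and 68.0 CPM. Their part in the HOX result was not tested.

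In HUVEC radiation changed HOX genes by less than 2-fold. There 25 were tested and 9 called, 8 higher and 1 lower, with 38.7% of all genes called and medians of 0.13 for HOX genes and 0.01 for all genes. HOXA5 had 14.4, 18 and 14.2 CPM in irradiated HUVEC, against 10.4, 9.90 and 11.1 CPM in controls (0.57 ± 0.07, adjusted p = 8.51e-07). HOXB3 had 12.2, 13 and 12.8 CPM in irradiated cells and 8.85, 8.97 and 9.59 CPM in controls (0.47 ± 0.06, adjusted p = 7.52e-07). HOXA3 had 4.70, 4.54 and 4.89 CPM in irradiated cells and 3.47, 3.43 and 3.51 CPM in controls (0.44 ± 0.09, adjusted p = 0.000286). These genes rose in all 3 irradiated libraries beyond every control.

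HOXA6 and HOXD9 rose too, and HOXA11 fell. HOXA6 had 4.17, 4.33 and 4.29 CPM in irradiated HUVEC and 3.27, 2.72 and 3.14 CPM in controls (0.48 ± 0.10, adjusted p = 0.000289). HOXD9 had 1.10, 1.47 and 1.34 CPM in irradiated cells and 1.06, 0.688 and 0.764 CPM in controls (0.64 ± 0.19, adjusted p = 0.00762). HOXA11, the most posterior HOXA gene expressed in these cells, had 9.49, 10.3 and 10.9 CPM in irradiated cells and 12.5, 13 and 11.8 CPM in controls (-0.28 ± 0.06, adjusted p = 0.000871). The other calls were HOXA2, HOXA9 and HOXD4, at 0.11 to 0.36, and each of these was lost in at least 1 fit with a library left out.

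HOXB7 had 10.3, 11 and 10.8 CPM in irradiated HUVEC and 11.3, 12.4 and 10.9 CPM in controls (adjusted p = 0.195). HOXD8 had 14, 14.1 and 15.1 CPM in irradiated cells and 12.7, 13.8 and 13.5 CPM in controls (adjusted p = 0.135). Neither was called, the libraries overlapping for HOXB7 and lying apart for HOXD8. The difference of the responses, HAEC minus HUVEC, was called for 5 of 25 HOX genes, all lower in HAEC, while 18% of all genes were called. These were HOXA6, with 0 to 9 counts per HAEC library and a call lost when a library was left out, and HOXB2, HOXB3, HOXB4 and HOXB6. For HOXA5, which was called higher in both cell types, the difference was 0.14 ± 0.16 (adjusted p = 0.652). Of the TALE cofactors 4 of 7 tested rose and 2 fell in HAEC, and 4 of 8 rose and 1 fell in HUVEC. That was 85.7% and 62.5% called, against 39.7% and 38.7% of all genes. MEIS2 had 35.7 CPM in irradiated and 26.2 CPM in control HAEC, and 25.1 CPM in irradiated and 15.5 CPM in control HUVEC.

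IMR-90 cells lost much of their HOXA expression after radiation and at late passage. After radiation 22 HOX genes were tested and 10 called, 2 higher and 8 lower, where 49.1% of all genes were called. At PDL52 13 of the 22 were called, 2 higher and 11 lower, where 50.1% of all genes were called. The HOX medians were -0.98 and -0.77, against -0.02 and -0.04 over all genes. The share of genes called was thus near the background, and the direction and size were uneven by cluster: all 6 genes from HOXA2 to HOXA7 fell in both comparisons. Both comparisons use the same 2 PDL15 libraries, so their values are not independent.

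**Figure D3:**
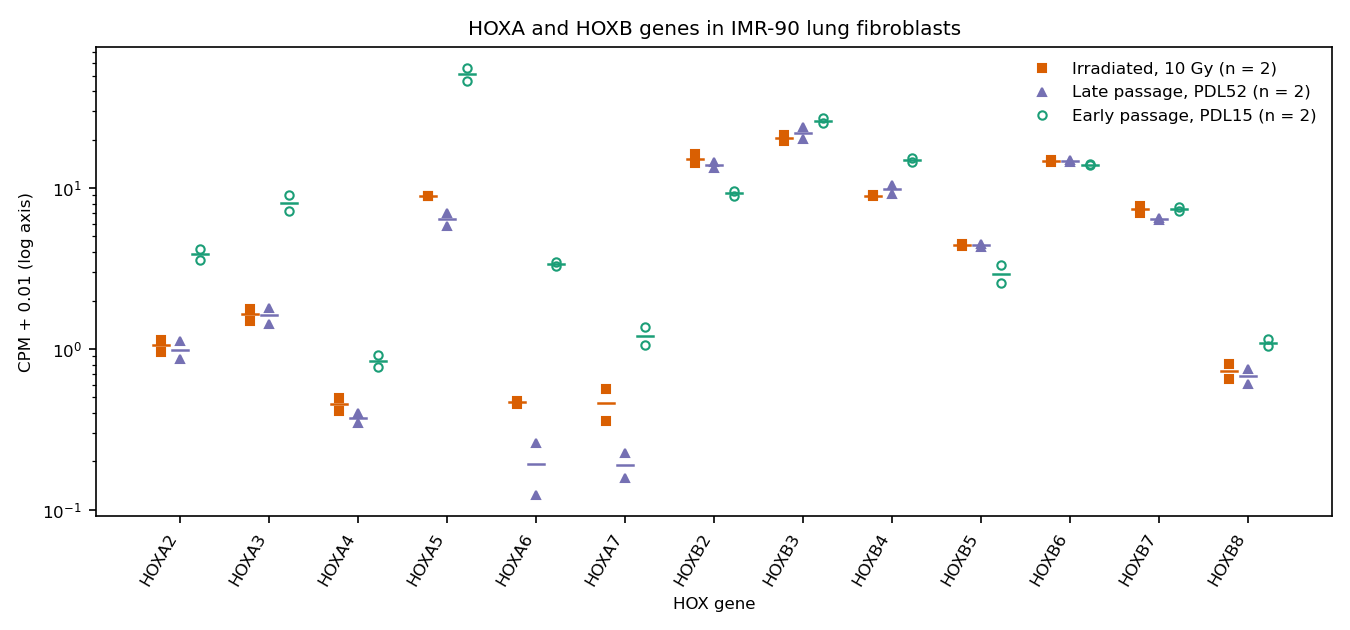
Level of HOXA2 to HOXA7 and HOXB2 to HOXB8 in IMR-90 cells after 10 Gy (squares), at PDL52 (triangles) and at PDL15 (circles), 2 libraries each, as CPM plus 0.01 on a log axis with means as short lines. HOXA2 to HOXA7 lie below PDL15 in every treated library, HOXB2 and HOXB5 above it, and HOXB6 and HOXB7 near it.

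HOXA5 had 8.89 and 8.90 CPM in irradiated cells and 6.96 and 5.80 CPM at PDL52, against 55.4 and 46.3 CPM at PDL15. HOXA5 was 5.72-fold lower after radiation (log2 fold change -2.52 ± 0.10, adjusted p = 7.62e-11) and 7.96-fold lower at PDL52 (-2.99 ± 0.10, adjusted p = 1.6e-11). HOXA5 has no annotated overlap with another gene's exons. HOXA3 had 1.77 and 1.49 CPM in irradiated cells and 1.79 and 1.42 CPM at PDL52, against 8.98 and 7.24 CPM at PDL15. Its log2 fold change was -2.31 ± 0.15 (adjusted p = 1.72e-08) after radiation and -2.33 ± 0.15 (adjusted p = 1.61e-08) at PDL52.

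HOXA6 had 0.465 and 0.446 CPM in irradiated cells and 0.251 and 0.114 CPM at PDL52, against 3.46 and 3.28 CPM at PDL15. The log2 fold changes were -2.88 ± 0.24 (adjusted p = 2.13e-07) and -4.18 ± 0.27 (adjusted p = 1.54e-08). HOXA2 had 1.13 and 0.954 CPM in irradiated cells and 1.10 and 0.858 CPM at PDL52, against 4.14 and 3.58 CPM at PDL15 (-1.88 ± 0.18 and -1.97 ± 0.18, adjusted p = 6.35e-07 and 4.48e-07). HOXA7 had 0.345 and 0.557 CPM in irradiated cells and 0.215 and 0.147 CPM at PDL52, against 1.04 and 1.36 CPM at PDL15 (-1.42 ± 0.31 and -2.72 ± 0.34, adjusted p = 0.00142 and 1.13e-05). HOXA4, below 1 CPM in all 6 libraries, changed by -0.92 ± 0.28 and -1.20 ± 0.28, and its call after radiation was lost when a library was left out. Strand use in counting is not given in the sources used here, and HOXA-AS3 overlaps 39.3% of the HOXA6 and 62.5% of the HOXA7 exon bases on the opposite strand, so reads of these genes cannot be told apart from it. HOXA3 and HOXA4 overlap noncoding genes on the opposite strand in 15.4% and 16.3% of their exon bases. On the same strand other annotated genes overlap 9.24% of HOXA3 and 31% of HOXA4, which counting by strand would not separate. HOXA9 to HOXA11, all below 1 CPM, were not called in either comparison.

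The HOXB genes of the same libraries moved less and in both directions. HOXB4 fell to 8.98 and 8.96 CPM in irradiated cells and 10.5 and 9.17 CPM at PDL52, against 15.3 and 14.4 CPM at PDL15 (-0.72 ± 0.08 and -0.59 ± 0.08, adjusted p = 5.3e-06 and 3.79e-05). HOXB2 rose to 14.2 and 16.3 CPM in irradiated cells and 14.4 and 13.2 CPM at PDL52, against 9.55 and 8.94 CPM at PDL15 (0.72 ± 0.09 and 0.58 ± 0.09, adjusted p = 7.51e-06 and 6.17e-05). HOXB5 rose by 0.60 ± 0.13 and 0.59 ± 0.13, and HOXB3 fell by 0.37 and 0.25 on the log2 scale, the PDL52 call being lost when a library was left out. HOXB7 had 7.71 and 6.98 CPM in irradiated cells and 6.54 and 6.31 CPM at PDL52, against 7.66 and 7.20 CPM at PDL15, and was not called (adjusted p = 0.913 and 0.0773). HOXB6, at 13.8 to 15 CPM in all 6 libraries, was not called either. HOXA held 22% and 22.6% of the summed HOX CPM per kilobase after radiation and 16.9% and 18.4% at PDL52, against 58.9% and 62.3% at PDL15. The summed CPM per kilobase of HOXB was 24.2 and 25.1 after radiation and 24.7 and 22.9 at PDL52, against 24.0 and 23.3 at PDL15. Both irradiated libraries lay above both PDL15 libraries, while PDL52 and PDL15 overlapped.

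Set directly against each other, irradiated cells had more HOXA5 (0.48 ± 0.10, adjusted p = 0.00763), HOXA6 (1.30 ± 0.30, adjusted p = 0.013) and HOXA7 (1.30 ± 0.35, adjusted p = 0.0295) than PDL52 cells. These were the calls among 22 HOX genes, with 10.6% of all genes called, and each of them was lost in at least 1 fit with a library left out. HOXB7 differed by 0.19 ± 0.09 (adjusted p = 0.225). At PDL52 HOXB8, HOXC4 and HOXC6 also fell, at 0.0119 to 0.668 CPM in PDL52 cells, and these calls too were lost when a library was left out.

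Noncoding and partner genes also changed in IMR-90, where 49.1% of all genes were called after radiation and 50.1% at PDL52. The shares called were 71.4% and 57.1% for cluster noncoding genes and 77.8% in both comparisons for TALE cofactors. For genes of retinoid regulation they were 85.7% and 78.6%. HOXA-AS3 had 0.977 CPM after radiation and 0.390 CPM at PDL52, against 5.59 CPM at PDL15 (-2.52 ± 0.17 and -3.83 ± 0.19), and HOXA-AS2 had 2.93 and 2.97 CPM, against 9.14 CPM. Of the 7 cluster noncoding genes tested, 4 fell and 1 rose after radiation, and 3 fell and 1 rose at PDL52. Of 9 TALE cofactors 7 fell and none rose after radiation, and 6 fell and 1 rose at PDL52. MEIS1 had 59.3 CPM after radiation and 65.9 CPM at PDL52, against 133 CPM at PDL15. Of 14 genes of retinoid regulation 8 fell in each comparison, and 4 rose after radiation and 3 at PDL52.

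Most positional factors outside the clusters fell as well. Called were 73.3% of them after radiation and 86.7% at PDL52, against 49.1% and 50.1% of all genes. Of 15 tested, 9 fell and 2 rose after radiation, and 10 fell and 3 rose at PDL52. TBX3, a T-box factor of lung and limb mesenchyme, had 35.9 CPM after radiation and 32.7 CPM at PDL52, against 104 CPM at PDL15, and TCF21, a factor of lung mesenchyme, had 33.2 and 20.4 CPM, against 51.7 CPM. Of the 23 chromatin regulators 9 fell and 4 rose after radiation and 8 fell and 4 rose at PDL52, or 56.5% and 52.2% called, near the share of all genes given above. Among them was JARID2, a Polycomb cofactor, at 13 CPM after radiation, against 29.2 CPM at PDL15. Of the 10 flanking genes tested 7 fell and 1 rose after radiation, LNPK, a gene beside HOXD, having 103 CPM, against 53.7 CPM at PDL15. Fibroblast markers moved with these results: 9 of 10 fell and 1 rose after radiation, and 8 fell and 2 rose at PDL52. The list summed to 3251 CPM after radiation and 5000.4 CPM at PDL52, against 14821 CPM at PDL15. The 9 endothelial markers summed to 96.0 CPM after radiation and 89.3 CPM at PDL52, against 252 CPM at PDL15. Of 5 tested epithelial markers 4 rose in each comparison, with sums of 66.8 CPM after radiation and 66.8 CPM at PDL52, against 13.3 CPM at PDL15. The smooth muscle markers summed to 785 CPM after radiation and 982 CPM at PDL52, against 436 CPM at PDL15, and the leukocyte markers to 15.4 and 12.4 CPM, against 8.30 CPM at PDL15. The part of these shifts in the HOX result was not tested.

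In WI-38 cells HRASG12V moved genes of the HOXB cluster in both directions. Of 19 HOX genes tested 10 were called, 5 higher and 5 lower, where 45.9% of all genes were called, and the medians were -0.03 for HOX genes and 0.07 for all genes. HOXB3 had 10.0 and 10.6 CPM with HRASG12V, against 22.9 and 25.6 CPM with empty vector (-1.23 ± 0.13, adjusted p = 1.17e-05). HOXB4 had 4.10 and 5.15 CPM with HRASG12V, against 12.6 and 13.6 CPM with empty vector (-1.50 ± 0.15, adjusted p = 9.08e-06). HOXB3 shares 7.94% of its annotated exon bases with other genes on the same strand, HOXB4 17.1% and HOXB6 16.6%, while HOXB7 shares none. The neighbours on the other side rose. HOXB6 had 17.3 and 16.1 CPM with HRASG12V and 10.2 and 10.1 CPM with empty vector (0.72 ± 0.13, adjusted p = 0.000869). HOXB7 had 7.95 and 6.63 CPM with HRASG12V and 3.61 and 3.01 CPM with empty vector (1.14 ± 0.16, adjusted p = 0.000111). HOXB5 rose by 0.53 ± 0.16 on the log2 scale (adjusted p = 0.0172), a call lost when a library was left out.

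**Figure D4:**
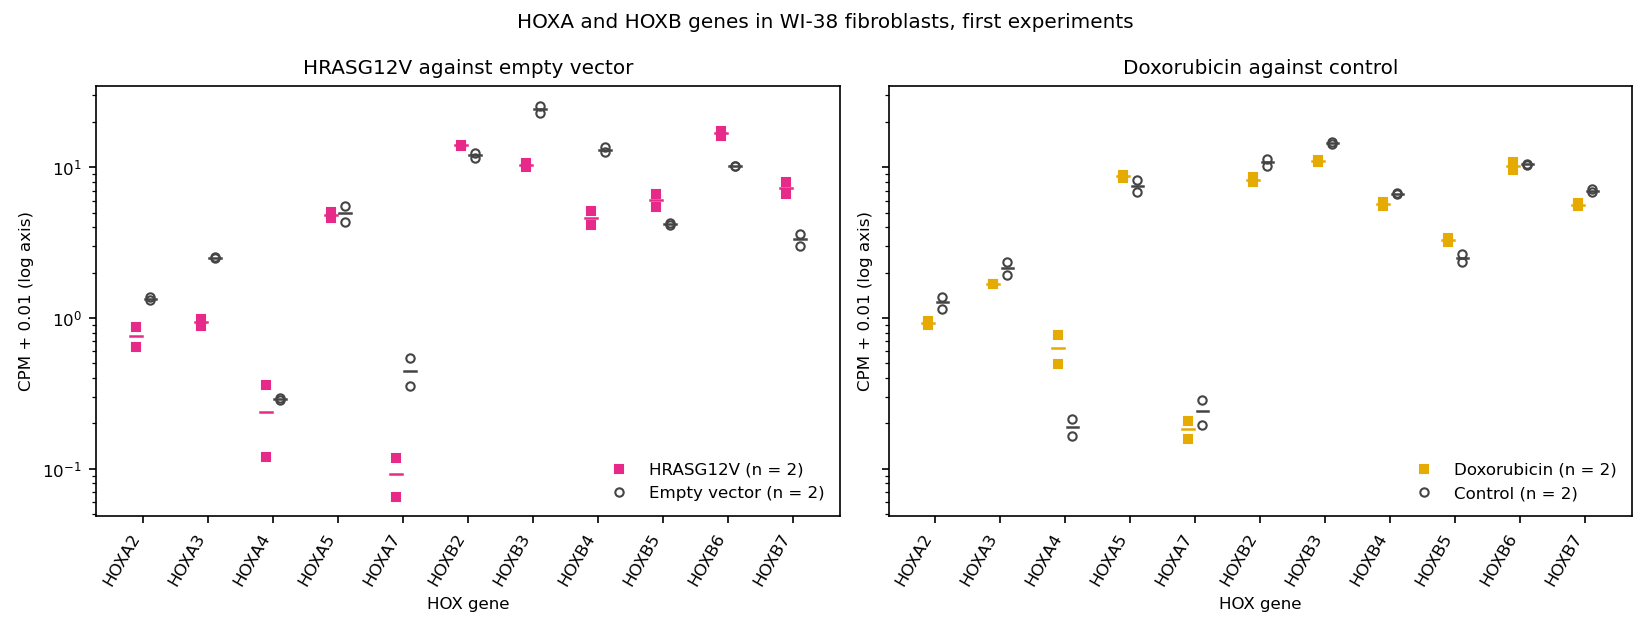
Level of HOXA2 to HOXA7 (without HOXA6) and HOXB2 to HOXB7 in the first WI-38 set, as CPM plus 0.01 on a log axis, with HRASG12V (squares) beside empty vector (circles) on the left and doxorubicin (squares) beside control (circles) on the right, 2 libraries each and means as short lines. With HRASG12V HOXB3 and HOXB4 lie below and HOXB6 and HOXB7 above empty vector, while with doxorubicin the pairs lie close except HOXA4.

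HOXA genes with low numbers fell with HRASG12V. HOXA3 had 0.981 and 0.880 CPM with HRASG12V and 2.48 and 2.51 CPM with empty vector (-1.42 ± 0.20, adjusted p = 0.00011). HOXA2 had 0.636 and 0.855 CPM with HRASG12V and 1.36 and 1.30 CPM with empty vector (-0.84 ± 0.24, adjusted p = 0.0132), a call lost with a library left out. HOXA7, below 1 CPM in both groups, fell, with 8 and 13 counts with HRASG12V and 60 and 75 with empty vector. HOXA5 had 4.62 and 5.02 CPM with HRASG12V and 5.54 and 4.30 CPM with empty vector and was not called (-0.03 ± 0.17, adjusted p = 0.895). HOXA11, below 1 CPM, rose in a call lost with a library left out, having 46 and 39 counts with HRASG12V and 13 and 4 with empty vector.

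Among the other genes 5 of 9 TALE cofactors fell and 2 rose with HRASG12V, or 77.8% called, against 45.9% of all genes. HOXA-AS2 had 0.952 CPM with HRASG12V and 3.20 CPM with empty vector. Of 10 fibroblast markers 9 fell and 1 rose, their sum being 1135 CPM with HRASG12V and 6659 CPM with empty vector, and 8 of 9 endothelial markers rose while 1 fell, with a sum of 51.9 CPM with HRASG12V and 76.1 CPM with empty vector. Their part in the HOX result was not tested.

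Doxorubicin in the first set changed 2 of the 19 HOX genes tested, with 26.8% of all genes called. HOXB3 had 11.2 and 10.8 CPM with doxorubicin and 14.7 and 14.2 CPM in controls (-0.39 ± 0.13, adjusted p = 0.0414). HOXA4 rose, with 102 and 83 counts with doxorubicin and 25 and 34 in controls (1.78 ± 0.50, adjusted p = 0.0203). Neither call held with every library left out, and the count then ran from 0 to 1. HOXA5 had 8.86 and 8.51 CPM with doxorubicin and 8.17 and 6.82 CPM in controls, and HOXB7 had 5.75 and 5.54 CPM with doxorubicin and 6.79 and 7.18 CPM in controls. These groups did not overlap, yet the changes were not called (adjusted p = 0.38 and 0.177). The HOX median was -0.23 and that of all genes 0.01. Of 9 endothelial markers 2 rose and 6 fell, with a sum of 243 CPM with doxorubicin and 106 CPM in controls. Of 10 fibroblast markers 5 rose and 1 fell, with a sum of 8150.3 CPM with doxorubicin and 4649 CPM in controls, and the smooth muscle markers summed to 168 and 448 CPM. Their part in the HOX result was not tested.

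The response to HRASG12V differed from that to doxorubicin for 8 of 19 HOX genes, with 35.6% of all genes called. HOXB7 (1.45 ± 0.22), HOXB6 (0.75 ± 0.19) and HOXB2 (0.60 ± 0.19) were higher in the HRASG12V response, and HOXA3, HOXA4, HOXA7, HOXB3 and HOXB4 lower, HOXB4 by -1.27 ± 0.21 (adjusted p = 0.000693). With a library left out, between 4 and 8 were called. HOXA5 differed by -0.24 ± 0.23 (adjusted p = 0.46).

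In the second WI-38 set few HOX genes were called, with a coefficient of variation between replicates of 38.1%, as edgeR estimated it, against 8.41% in IMR-90. In the repeat of doxorubicin 2 of 24 tested genes were called and 5.45% of all genes. HOXB6 had 19.2 and 19.5 CPM with doxorubicin, against 55.7 and 34.1 CPM in controls (-1.21 ± 0.24, adjusted p = 0.00785). HOXA5 had 19.6 and 21.6 CPM with doxorubicin and 23.9 and 20.9 CPM in controls, and HOXB7 had 15.6 and 15.8 CPM and 13.9 and 15.8 CPM. Both overlapped and were not called (adjusted p = 0.801 and 0.887). Fibroblast markers summed to 8365 CPM with doxorubicin and 4723 CPM in controls, with 3 of 10 higher and none lower, and their part in the HOX result was not tested. None of the calls in the second set held in every fit with a library left out, where the counts ran from 0 to 3 for doxorubicin and radiation and from 1 to 2 for exhaustion.

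Radiation of WI-38 raised 2 of 24 tested genes and lowered none, with 15% of all genes called. HOXC9 had 14 and 158 counts in irradiated libraries and 7 and 2 in controls, so the call (adjusted p = 0.0462) rested on a single library. HOXA5 had 23.6 and 19 CPM in irradiated cells and 15.8 and 14.6 CPM in controls (0.48 ± 0.19, adjusted p = 0.0963). HOXB7 had 19.7 and 18.7 CPM in irradiated cells and 15.4 and 16 CPM in controls (0.29 ± 0.19, adjusted p = 0.334). Neither was called, though the groups did not overlap. HOTAIRM1, a noncoding gene of the HOXA cluster, had 10.6 CPM in irradiated cells and 3.63 CPM in controls (1.55 ± 0.22, adjusted p = 0.00022).

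Replicative exhaustion of WI-38 raised 2 of 24 tested genes and lowered none, with 12.6% of all genes called. HOXC8 had 1.75 and 1.10 CPM in exhausted cells and 0.448 and 0.489 CPM in proliferating cells (1.61 ± 0.48, adjusted p = 0.0419). HOXA11 had 100 and 19 counts in exhausted and 0 and 1 in proliferating libraries, which places the control at the detection limit (adjusted p = 0.0133). HOXA5 had 16.6 and 15.6 CPM in exhausted cells and 22 and 22.1 CPM in proliferating cells (-0.46 ± 0.19, adjusted p = 0.135), and HOXB7 had 16.6 and 20.9 CPM against 17.4 and 14.8 CPM (adjusted p = 0.527).

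The radiation and passage responses of the 2 strains differed in the HOXA block. For WI-38 minus IMR-90, 8 of 26 tested HOX genes had a higher radiation response and none a lower one, with 19.9% of all genes called and medians of 1.09 for HOX genes and -0.20 for all genes. For late passage 9 of 26 were higher and none lower, with 11.9% of all genes called. The difference for HOXA5 was 2.93 ± 0.23 (adjusted p = 3.07e-08) for radiation and 2.52 ± 0.23 (adjusted p = 4.41e-07) for passage. HOXA3 differed by 2.59 ± 0.34 and 2.62 ± 0.34, and HOXA2 by 2.36 ± 0.26 and 1.53 ± 0.26. HOXB7 differed by 0.23 ± 0.23 and 0.41 ± 0.23 and was not called. With a library left out the counts ran from 6 to 10 for radiation and from 5 to 9 for passage, and HOXA2 to HOXA5 stayed called in each fit of both. The strain and the kind of library change together here and cannot be told apart. Between the doxorubicin experiments, repeat minus first, HOXB5 and HOXB6 were lower of 28 HOX genes tested, where 4.42% of all genes were called, and neither call held with every library left out.

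**Figure D5:**
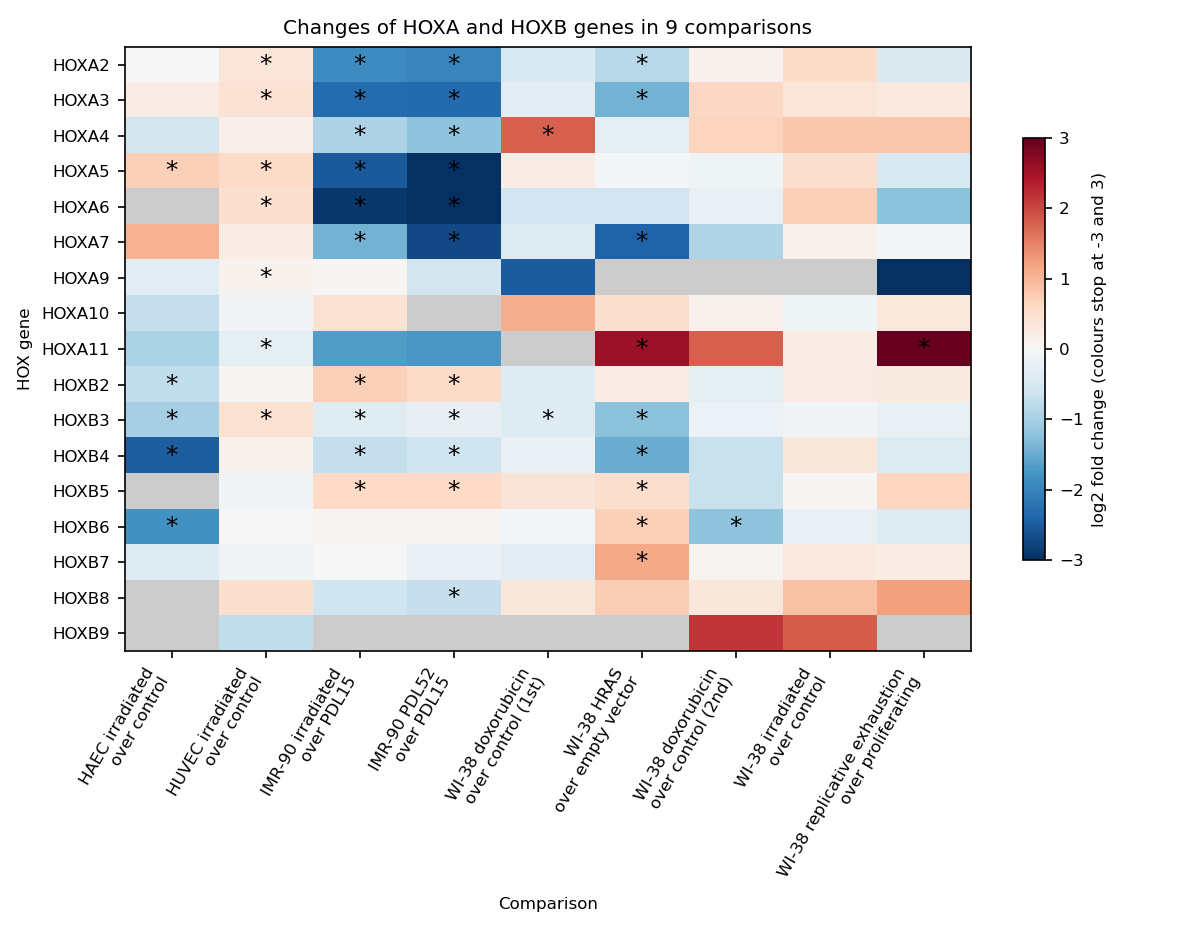
Log2 fold change of 17 HOXA and HOXB genes (rows) in the 9 comparisons of treated with control cells (columns), with colours stopping at -3 and 3, stars for adjusted p below 0.05 and grey where a gene was not tested or was below 0.1 CPM in both groups. The blue block of HOXA2 to HOXA7 lies in the 2 IMR-90 columns, and HOXB3 carries 6 stars, the most of these genes.

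Across the 9 comparisons of treated with control cells, 29 of the 39 genes were tested at least in 1 and 14 in all. At least 1 call was made for 22. Over all genes, 5.45% to 50.1% of those tested were called in a single comparison. How many of all genes were called in at least 1 was not counted, so the 22 have no background beside them. HOXB3 was called most often, lower in 5 comparisons and higher in 1, irradiated HUVEC. HOXB4 was lower in 4 and higher in none. HOXA5 was called in 4, higher in irradiated HAEC and HUVEC and lower in both IMR-90 comparisons. HOXB5 was higher in 3 and lower in none. Of the 22 genes 9 were called in both directions. No HOX gene was called in the same direction in more than 5 of the 9 comparisons, and the IMR-90 comparisons share their controls.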

How the data were processed

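The authors deposited raw counts of reads per Ensembl gene for each library of total RNA. The labels' protocols name rRNA depletion and the NuGEN Ovation V2 kit, which are not shown here to cover all 37 libraries. The labels give a length of 150 bp for the 25 libraries outside the second WI-38 set and none for its 12. How else the 2 kinds of library differ is not resolved here. Per the submitters' processing notes bcl2fastq, cutadapt, STAR 2.4, featureCounts and hg19 were used; the use of strand in counting is not given in the sources used here. Symbols, exon lengths and overlaps came from GENCODE v29 on another build than hg19, and promoters from RefSeq (GRCh38.p14). No coordinate was converted between builds.

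From these counts, each set of libraries was fitted with edgeR 4.0.16 in R 4.3.3. Settings were TMM scaling, filterByExpr by group, the quasi-likelihood test and Benjamini-Hochberg adjustment over all genes, with a threshold of 0.05. The first comparison of each fit was afterwards also run on counts simulated from that fit, with figures not given here. DESeq2 1.42.0, other scaling, no filter, a replicate block and 79 fits with a library left out were alternatives. CPM are TMM-scaled, with 0.01 added on log axes. Totals of 102293388 to 370996204 counts per library set the precision. Bounds for genes without a count take 3 counts as the floor and cover counting error only.

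The HOX genes and gene lists were chosen with earlier results of these data known. Values are given per library for at most 6 called genes at 1 CPM or more with the smallest adjusted p in each comparison, and for HOXA5, HOXB7 and HOXD8 where tested. HOX genes named below 1 CPM, and HOXA9, HOXB2 and HOXB5 where outside that rule, were chosen after their values were seen. So were the levels of the second WI-38 set that are given beside IMR-90. Single-gene results of a few listed genes are not reported here; they stay in the counts, medians and sums.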

Additional observations from a re-analysis of the deposited data

Results flagged for a closer look

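For 24 values, the response of a HOX gene differed between cell types or experiments in a test of the difference itself (edgeR quasi-likelihood test of the interaction, adjusted p below 0.05 over all genes). All are differences of log2 fold changes, and no explanation was tested.

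For radiation, HAEC minus HUVEC, the difference was -2.63 for HOXA6, -0.79 for HOXB2, -1.43 for HOXB3, -2.57 for HOXB4 and -1.77 for HOXB6. Of these HOXB2, HOXB4 and HOXB6 were lower in irradiated HAEC and not called in HUVEC, and HOXB3 was lower in HAEC and higher in HUVEC. The HOXA6 call was lost when a library was left out.

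For radiation, WI-38 minus IMR-90, it was 2.36 for HOXA2, 2.59 for HOXA3, 1.65 for HOXA4, 2.93 for HOXA5, 3.52 for HOXA6, 1.46 for HOXA7, 1.00 for HOXB4 and 5.67 for HOXC9, the last resting on 1 library with 158 counts. For late passage it was 1.53 for HOXA2, 2.62 for HOXA3, 2.01 for HOXA4, 2.52 for HOXA5, 2.65 for HOXA7, 8.03 for HOXA11, 1.91 for HOXB8, 2.61 for HOXC6 and 2.37 for HOXC8. HOXA11 had 0 and 1 counts in its WI-38 controls, so its size depends on the prior count. For radiation, the calls of HOXA6, HOXA7, HOXB4 and HOXC9 were lost in at least 1 fit with a library left out. For late passage, those of HOXA11, HOXB8, HOXC6 and HOXC8 were lost likewise. Strain and kind of library cannot be told apart.

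For doxorubicin in WI-38, repeat minus first experiment, it was -1.04 for HOXB5 and -1.16 for HOXB6. Both calls were lost when a library was left out.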

How the results depend on the processing

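No call of a HOX gene changed sign under any alternative run. The 23 calls between HAEC and HUVEC held under DESeq2 size factors, without the filter, in the DESeq2 Wald test and in a fit of 25 libraries, and 22 held in every fit with a library left out. For the endothelial and IMR-90 responses to treatment and for HRASG12V, counts of calls stayed within 1.5 times of those reported under each of these settings that applied, except for irradiated HAEC with a library left out, where HOXB3 and HOXB6 lost their calls.

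The small WI-38 counts moved. Of the 2 calls for doxorubicin in the first set, the count was 1 without the filter and 5 in a fit of the compared groups alone; that fit gave 1 for the repeat, 1 for radiation and 4 for exhaustion. Exhaustion gave 5 without the filter and 7 in the Wald test, and radiation gave 4 in the Wald test. HAEC held 1 HOX gene at 2 CPM or more. For HAEC and HUVEC the fit of compared groups is the fit reported. The median change of all genes in irradiated WI-38 was -0.06, and -0.20 without the filter and -0.13 with DESeq2 size factors.

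With a library left out, counts ran from 3 to 5 for irradiated HAEC, 0 to 1 for doxorubicin, 0 to 3 for its repeat, 0 to 3 for radiation of WI-38, 1 to 2 for exhaustion, 0 to 3 for irradiated against PDL52 IMR-90, 4 to 8 for HRASG12V minus doxorubicin, 5 to 9 for late passage between strains and 0 to 3 for repeat minus first doxorubicin. Genes that were not called crossed 0 in these fits. In log2, HOXB7 ran from -0.85 to 0.41 in irradiated HAEC, -0.085 to 0.059 in irradiated IMR-90 (0.035 without PDL15 replicate 1), -0.015 to 0.18 in repeat doxorubicin and -0.68 to 0.58 for HAEC minus HUVEC. HOXA5 with HRASG12V ran from -0.30 to 0.17 (0.033 without HRASG12V replicate 1). HOXD8 ran from -0.19 to 1.05 in irradiated HAEC, -0.72 to 0.45 for IMR-90 over WI-38 (0.36 without PDL15 replicate 1), -0.31 to 0.95 for HAEC minus HUVEC, -4.75 to 0.87 for radiation between strains and -0.35 to 0.68 for passage between strains (-0.08 without PDL52 replicate 1).

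Whether replicate numbers pair the libraries cannot be settled here. Correlations of same-numbered deviations ran from -0.064 to 0.015 in HUVEC and were 0.116 with HRASG12V. In groups of 2 libraries the deviations mirror each other, so both replicates give the same value. With the replicate block HOXB6 in irradiated HAEC, HOXA9 in irradiated HUVEC and HOXC9 in irradiated WI-38 lost their calls, the uncalled HOXD8 in HAEC was -0.68, and counts were 4 in HAEC and 8 in HUVEC. Genes under about 3 counts per library were not detectable at this depth.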
